A study of Mus musculus with 6 samples.

Results

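The interleukin-1 (IL-1) family and inflammasome genes described here are 10 genes named by symbol: the ligands Il1a, Il1b, Il18 and Il33, the receptor antagonist Il1rn, the receptor genes Il1r1, Il1r2 and Il1rap, and Casp1 and Nlrp3 of the inflammasome. All 10 were found among the 25206 genes of the expression table, each under its current symbol. They were measured in alveolar macrophages, the phagocytes that patrol the air side of the lung, which were lavaged from Zcchc6+/+ and Zcchc6-/- mice and hybridized to 3 arrays for each genotype. The mice were adults of both sexes kept under basal conditions, without infection or other treatment. The Zcchc6-/- animals carried a germline deletion of critical exons, made by crossing mice with a floxed Zcchc6 gene to an EIIa-cre strain and breeding the Cre transgene out, so the mutation was carried by every cell and not by macrophages alone. The labels do not say whether an array holds 1 mouse or a pool. The comparison asks whether the loss of this RNA uridyltransferase, an enzyme that adds uridines to the ends of RNAs, altered the resting level of these transcripts.

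IL-1 alpha and IL-1 beta bind the same receptor, IL1R1, which pairs with the accessory protein IL1RAP and signals through the adaptor MyD88 to NF-kB. The pathway is restrained outside the cell by IL1RN, which occupies the receptor without activating it, and by IL1R2, a decoy that binds ligand and does not signal. IL-1 beta and IL-18 are made as inactive precursors and are cut by caspase-1 after an inflammasome, such as the one formed by NLRP3, has assembled. In the lung, alveolar macrophages are a source of IL-1 in bacterial pneumonia, while IL-33 is chiefly a product of epithelial and stromal cells.

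Expression is given as the deposited log2 value of the Robust Multiarray Average (RMA), 1 value per gene and array, and differences are Zcchc6-/- minus Zcchc6+/+ on that scale. The values of the table ran from 0.35 to 13.07 with a median of 4.41. Probe sets differ in how strongly they bind, so a higher signal of 1 gene than of another is not read as more mRNA, and signals below the median are likely to understate a difference. Zcchc6 itself was at 8.65 to 8.77 in Zcchc6+/+ and at 7.69 to 8.22 in Zcchc6-/- arrays, without overlap. The log2 difference was -0.70 (limma, unadjusted p = 0.00206, adjusted p = 0.774). According to the paper, the deletion shifts the reading frame so that the mutant transcript decays, and Zcchc6 mRNA in lung and protein in all tissues examined were lost. The position of the array probes relative to the deleted exons was not examined. All 14 alveolar macrophage markers were above the median signal in every array, between 7.92 and 12.22. Of these, 11 had a lower mean in Zcchc6-/- arrays and 3 a higher one. The genotypes did not overlap for 4 of the 14 on the lower side and 1 on the higher. The shares of all genes were 5.15% and 5.03%. At an unadjusted p under 0.05 there were 3 lower and 1 higher, where 2.53% and 2.5% of all genes were. An adjusted p of 0.05 in limma was passed by 0 of them. Fabp4, a fatty acid carrier named after its values were seen, was at 9.19 to 9.97 in Zcchc6+/+ and 7.92 to 8.95 in Zcchc6-/- arrays, a difference of -1.17. The scavenger receptor gene Marco was at 10.03 to 10.26 and 10.52 to 10.63, a difference of 0.43. The part of these markers in the results was not tested. Zcchc6-/- replicate 1 stood apart by its T cell markers, whose summed level was 11.16 there and 9.10 to 9.29 in the other 5 arrays. Xist, the RNA of the inactive X chromosome, was low in 2 arrays, Zcchc6-/- replicate 2 (3.27) and Zcchc6+/+ replicate 1 (3.78), and between 10.04 and 10.73 in the remaining 4, so that each genotype held 1 low array. Ddx3y, a gene of the Y chromosome, was high in the same 2 arrays (6.87 and 6.59) and at 2.28 to 2.96 in the remaining 4.

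None of the 10 genes passed an adjusted p of 0.05 in limma, as was so for 0% of all genes. Il1r1 had the largest difference of the 10, with 1.55-fold the Zcchc6+/+ signal in Zcchc6-/- macrophages, and it alone had an unadjusted p under 0.05. That is 1 of 10 members, where 5.03% of all genes had such a p, 2.5% of them with a higher mean in Zcchc6-/- macrophages. The genotypes did not overlap for 2 members, where 10.2% of all genes did not overlap. Il1r1 was on the higher side, with 5.03% of all genes, and Il33 on the lower, with 5.15%. The means of 5 members were higher and those of 5 lower in Zcchc6-/- macrophages, where 48.2% of all genes had a higher mean. Their median difference was 0.035 on the log2 scale, against a median of -0.0063 over all genes. With 10 members, counts of 1 and 2 lie near this background.

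**Figure D1:**
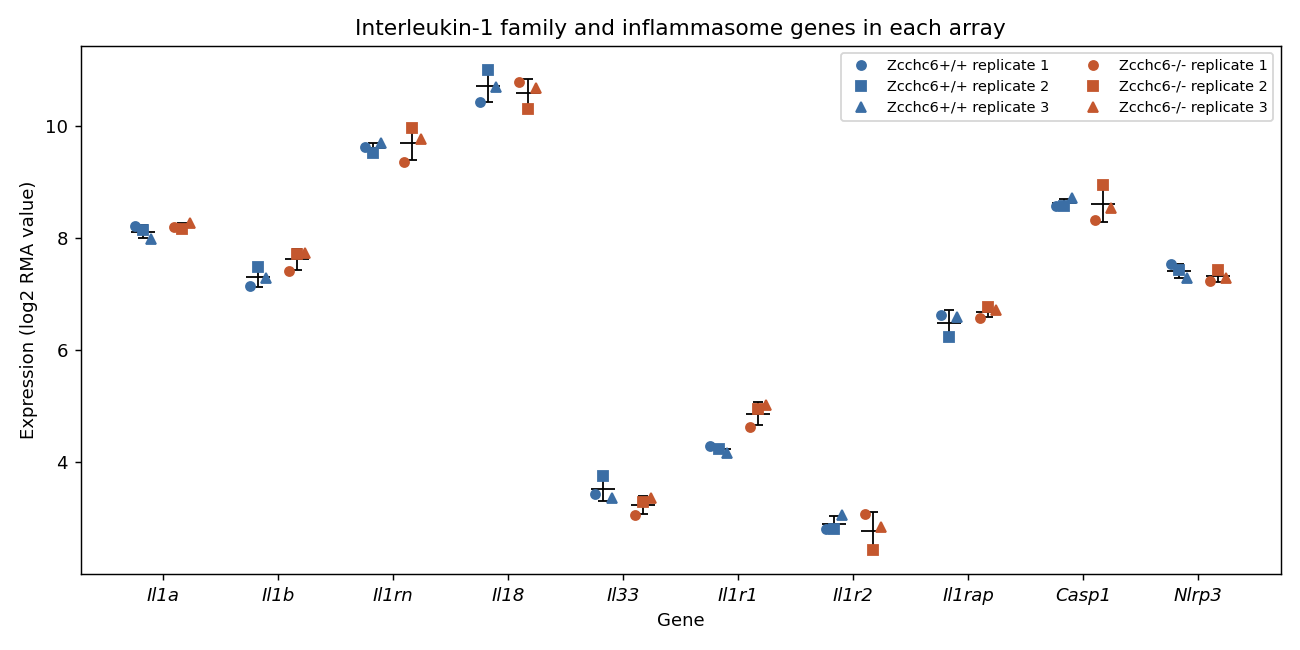
Expression of the 10 genes (log2 RMA value, vertical axis) in each Zcchc6+/+ (blue) and Zcchc6-/- (orange) array, with the mean and SD of each genotype as a black bar and whiskers (n = 3). The Zcchc6-/- values of Il1r1, 4.64 to 5.01, lie above its Zcchc6+/+ values, 4.17 to 4.29, whereas the genotypes overlap for each of the others except Il33.

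Among the ligands, Il1b, which encodes the secreted pyrogen IL-1 beta, gave 7.14, 7.47 and 7.29 on the wildtype arrays, against 7.40, 7.72 and 7.74 for Zcchc6-/-. Zcchc6-/- replicates 2 and 3 were above every Zcchc6+/+ array, while Zcchc6-/- replicate 1 fell between Zcchc6+/+ replicates 3 and 2. The wildtype mean was 7.30 ± 0.17 (SD, n = 3) against 7.62 ± 0.19 (SD, n = 3) in the absence of Zcchc6, and the log2 fold change was 0.32 (standard error 0.14, 95% interval -0.0061 to 0.65, unadjusted p = 0.0534, adjusted p = 0.997 from limma). This is 1.25-fold, with an interval from 1.00 to 1.57-fold. The size of the Il1b difference moved with the arrays used, since leaving out Zcchc6-/- replicate 1 gave 0.43 and leaving out Zcchc6+/+ replicate 1 gave 0.24. It was 0.19 among the 4 arrays with high Xist and 0.58 between the 2 with low Xist, a comparison of 1 array with 1.

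Neutrophils also carry Il1b mRNA, and the markers of these cells are given beside it. The summed level of 12 neutrophil markers was 9.01, 9.32 and 9.43 in Zcchc6+/+ replicates 1, 2 and 3. In Zcchc6-/- replicates 1, 2 and 3 it was 9.06, 9.79 and 9.50. This sum is weighted towards the markers with the strongest signals. With each marker counted alike, the mean log2 deviation from the Zcchc6+/+ mean was -0.074, 0.067 and 0.0065 in Zcchc6+/+ replicates 1, 2 and 3. It was 0.045, 0.27 and 0.28 in Zcchc6-/- replicates 1, 2 and 3. Of the 12, 8 had a higher and 4 a lower mean in Zcchc6-/- arrays. At an unadjusted p under 0.05, 3 were higher and 1 was lower, where 2.5% and 2.53% of all genes were. The defining markers S100a8 and S100a9, which encode the subunits of calprotectin, stayed below the median signal of the table in every array, at 3.70 to 4.23 and 3.04 to 3.80. The 4 markers of the list at an unadjusted p under 0.05 are named next, a choice made after their values were seen. The chemokine receptor gene Cxcr2 was at 5.94, 5.68 and 5.67 in Zcchc6+/+ and at 6.05, 7.49 and 7.01 in Zcchc6-/- arrays, and differed by 1.09. Lcn2, which encodes the iron-siderophore binding protein lipocalin, was at 4.84 to 5.25 in Zcchc6+/+ and 5.47 to 5.93 in Zcchc6-/- arrays, without overlap, and differed by 0.70. Csf3r, the receptor gene for G-CSF, was at 6.99 to 7.39 against 7.37 to 8.19 and differed by 0.63. The neutrophil collagenase gene Mmp8 was at 7.51 to 8.57 against 7.27 to 7.53, a difference of -0.63. The adjusted p of these 4 genes in limma was 0.784 to 0.981, and 0 of the 12 markers passed the threshold. In a lavage sample, fewer cells of a type and less RNA per cell cannot be told apart, and the part of neutrophil RNA in the Il1b values was not tested.

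Il1a, which encodes IL-1 alpha, lies next to Il1b on chromosome 2 and showed no comparable difference. Its values ran from 7.98 to 8.21 in Zcchc6+/+ and from 8.16 to 8.27 in Zcchc6-/- arrays, and the log2 fold change was 0.093 (standard error 0.11, 95% interval -0.16 to 0.34, adjusted p = 0.998 from limma). Whether the Il1a and Il1b differences differed from each other was not tested.

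Il1rn, the gene of the receptor antagonist, was at 9.62, 9.52 and 9.70 in wildtype and at 9.35, 9.95 and 9.77 in Zcchc6-/- macrophages. The Zcchc6-/- arrays held both its lowest and its highest value, and the Zcchc6+/+ arrays lay between. Its signal exceeded that of 97.9% of the genes on the arrays, and its mean difference was 0.083 (standard error 0.16, 95% interval -0.30 to 0.46, adjusted p = 0.998 from limma). The Il1rn difference was 0.25 when Zcchc6-/- replicate 1 was left out and -0.048 when Zcchc6-/- replicate 2 was.

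Il18, which encodes the interferon-gamma inducing cytokine IL-18, had a signal above that of 99.5% of genes. It ranged from 10.42 to 10.99 in Zcchc6+/+ and from 10.29 to 10.77 in Zcchc6-/- arrays. Both genotypes thus spread over more than the difference of their means, -0.12 (standard error 0.19, 95% interval -0.56 to 0.31, adjusted p = 0.998 from limma). The residual SD of Il18, 0.27, exceeded that of 80.9% of all genes, and the difference was 0.022 without Zcchc6+/+ replicate 2.

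Il33, the gene of the nuclear alarmin IL-33, gave 3.44, 3.75 and 3.37 on the wildtype arrays, against 3.06, 3.29 and 3.36 for Zcchc6-/-. All 3 Zcchc6-/- values lay below the Zcchc6+/+ ones, but Zcchc6-/- replicate 3 and Zcchc6+/+ replicate 3 nearly met. The log2 fold change was -0.28 (standard error 0.14, 95% interval -0.61 to 0.049, unadjusted p = 0.0850, adjusted p = 0.997 from limma). These values lie under the median of the table, where 32.7% of genes had a lower signal, so the array cannot show whether Il33 mRNA was present in these cells. The 10 markers of the alveolar epithelium, a known source of Il33, had a summed level of 8.05 to 8.68 in Zcchc6+/+ and 8.29 to 8.53 in Zcchc6-/- arrays, with 5 means higher and 5 lower, and their part in the Il33 values was not tested.

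Of the receptor genes, Il1r1, which encodes the signalling receptor for both IL-1 alpha and IL-1 beta, was at 4.29, 4.24 and 4.17 in wildtype and at 4.64, 4.95 and 5.01 in Zcchc6-/- macrophages. Every Zcchc6-/- array was above every Zcchc6+/+ array, and the wildtype values lay within a narrow band. The wildtype mean was 4.24 ± 0.064 (SD, n = 3) against 4.87 ± 0.20 (SD, n = 3) in the absence of Zcchc6, and the difference was 0.63 on the log2 scale (standard error 0.13, 95% interval 0.34 to 0.93, or 1.26 to 1.90-fold). The unadjusted p was 0.00133, which ranked 47 among 25206 genes, and the adjusted p was 0.716 from limma. The exact two-sided permutation p for 3 arrays against 3 without overlap is 0.1, the smallest this design can give.

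The Il1r1 difference kept its direction and lay between 0.56 and 0.75 when any array was left out, the lower value without Zcchc6-/- replicate 3 and the upper without Zcchc6-/- replicate 1, which carried the T cell signal. It was 0.62 among the arrays with high Xist and 0.66 between those with low Xist. Fibroblasts, endothelium and airway epithelium are known to carry Il1r1 mRNA, and lavage can bring up some of these cells. The summed level of 6 fibroblast markers was 6.36 to 6.55 in Zcchc6+/+ and 6.23 to 6.44 in Zcchc6-/- arrays, with 2 means higher and 4 lower, and all 6 were below the median signal. For 6 endothelial markers it was 7.41 to 7.74 and 7.53 to 7.94, with 3 means higher and 3 lower. All 8 airway epithelial markers had a higher mean in Zcchc6-/- arrays, 0 of them at an unadjusted p under 0.05, and their summed level was 10.19 to 11.20 in Zcchc6+/+ and 11.81, 10.94 and 10.37 in Zcchc6-/- replicates 1, 2 and 3. For the 12 neutrophil markers it was 9.01 to 9.43 in Zcchc6+/+ and 9.06, 9.79 and 9.50 in Zcchc6-/- replicates 1, 2 and 3. Their mean log2 deviation, each marker counted alike, was -0.074 to 0.067 in Zcchc6+/+ and 0.045, 0.27 and 0.28 in those Zcchc6-/- arrays. The part of these or other cells in the Il1r1 values was not tested. The wildtype Il1r1 signal stood above that of 46.8% of genes, just under the median of the table, where the deposited values give no detection call.

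Il1r2, the gene of the decoy receptor, was at 2.81 to 3.07 in Zcchc6+/+ and at 2.43 to 3.08 in Zcchc6-/- arrays. It did not accompany Il1r1, its neighbour on chromosome 1, and its log2 fold change was -0.11 (standard error 0.18, 95% interval -0.52 to 0.30, adjusted p = 0.998 from limma). Only 20.2% of genes had a lower wildtype signal, so Il1r2 too lay in the range of weak signals. Il1rap, the accessory chain shared by the receptors for IL-1 and IL-33, ranged from 6.23 to 6.63 and from 6.58 to 6.76, with Zcchc6+/+ replicate 2 the lowest array. Its log2 fold change was 0.20 (standard error 0.14, 95% interval -0.12 to 0.52, adjusted p = 0.997 from limma), and it was 0.075 without that array.

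The genes Il1r2, Il1r1, Il1rl2, Il1rl1, Il18r1 and Il18rap follow one another on chromosome 1 with no other protein-coding gene between them in the RefSeq annotation. Besides Il1r1, Il18rap, the accessory chain of the IL-18 receptor, had no overlap, with 4.30, 4.15 and 4.26 in Zcchc6+/+ and 4.44, 4.68 and 4.71 in Zcchc6-/- arrays. Its log2 fold change was 0.37 (standard error 0.11, unadjusted p = 0.0130, adjusted p = 0.902 from limma). The order of the Zcchc6-/- arrays was the same for Il18rap as for Il1r1, with replicate 1 lowest and replicate 3 highest. Il1rl2, the receptor gene for IL-36, was the neighbour with a strong signal, and at 8.36 to 8.43 against 8.36 to 8.60 it differed by 0.11 (standard error 0.11, adjusted p = 0.997 from limma). Il1rl1, the IL-33 receptor gene, and Il18r1, the ligand-binding chain for IL-18, had log2 fold changes of -0.058 and 0.19 with overlapping genotypes. Of the 6 genes in the row, 4 had a higher mean in Zcchc6-/- arrays and 2 a lower one.

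**Figure D2:**
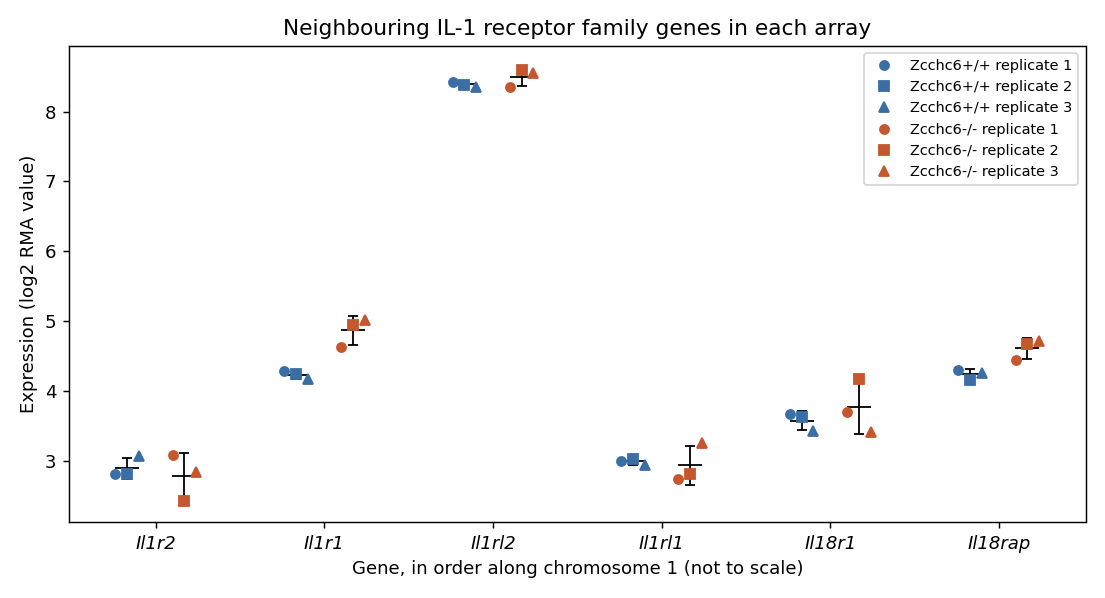
Expression (log2 RMA value, vertical axis) of 6 receptor genes of the IL-1 family in their order along chromosome 1 (horizontal axis, not to scale), by array, with mean and SD per genotype (n = 3). Il1r1 and Il18rap are the genes whose Zcchc6-/- arrays all lie above the Zcchc6+/+ arrays, with log2 fold changes of 0.63 and 0.37.

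In the inflammasome, Casp1, which encodes the protease that matures IL-1 beta and IL-18, was at 8.57, 8.58 and 8.71 in wildtype and at 8.33, 8.95 and 8.54 in Zcchc6-/- macrophages. The wildtype arrays were nearly alike, and the Zcchc6-/- arrays lay on both sides of them. The mean difference was -0.012 (standard error 0.16, 95% interval -0.40 to 0.37, adjusted p = 0.999 from limma), or 0.99-fold. It was -0.21 among the arrays with high Xist and 0.38 between the 2 with low Xist, a comparison of 1 array with 1. Whether these values differ from each other was not tested. Nlrp3, the sensor gene whose transcription is a priming step for the inflammasome, ranged from 7.28 to 7.54 in Zcchc6+/+ and from 7.23 to 7.43 in Zcchc6-/- arrays. Its log2 fold change was -0.10 (standard error 0.11, 95% interval -0.37 to 0.17, adjusted p = 0.998 from limma). Nlrp3 varied little, with a residual SD of 0.12, above that of 25.8% of all genes.

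**Figure D3:**
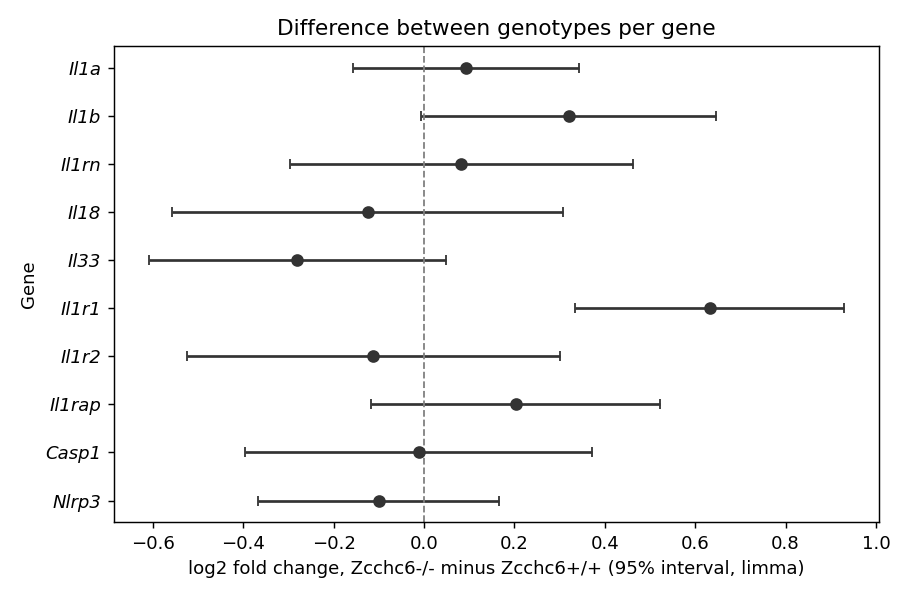
Log2 fold change of each of the 10 genes, Zcchc6-/- minus Zcchc6+/+ (horizontal axis), with the 95% interval from limma, not adjusted for the number of genes. The interval of Il1r1, 0.34 to 0.93, leaves out 0, and the intervals of the other 9 genes hold it.

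For the 9 members other than Il1r1, the intervals reached no further than -0.61 on the lower and 0.65 on the upper side. Differences of 1 on the log2 scale, thus lay outside the interval of each of the 10 genes, taken gene by gene. A p that misses the threshold does not show that the genotypes were alike within these bounds. Within the Zcchc6-/- group, replicate 1 gave the lowest value of 7 members and replicate 3 of 0, where 38.5% and 24.8% of all genes were lowest in these arrays. The 7 were Il1b, Il1rn, Il33, Il1r1, Il1rap, Casp1 and Nlrp3, and the share of the T cell RNA of that array in this was not tested.

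The other genes of the pathway were taken from 6 lists with 74 measured members, and 0 passed an adjusted p of 0.05 in limma. At an unadjusted p under 0.05, 1 was higher and 6 were lower in Zcchc6-/- macrophages, or 9.46% of the 74, against 5.03% of all genes. The genotypes did not overlap for 13, 4 higher and 9 lower, or 17.6% against 10.2% of all genes. The median log2 fold change of the 74 genes was -0.043.

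Most of these lower values belonged to the inflammasome adaptor, regulators and pore formers. Of its 16 genes, 4 had an unadjusted p under 0.05 and all 4 were lower, where 2.53% of all genes were, and the list's median log2 fold change was -0.091. This list, like the others, was chosen with earlier results of these data known, so the count is a description and no test of the list. Gbp5, an interferon-inducible guanylate-binding protein that promotes NLRP3 inflammasome assembly, gave 4.15, 4.35 and 4.14 on the wildtype arrays, against 3.66, 3.68 and 3.75 for Zcchc6-/-. Its groups were well apart, and the difference was -0.51 on the log2 scale (standard error 0.11, unadjusted p = 0.00149, adjusted p = 0.720 from limma), at a signal below the median of the table. Its relative Gbp2, with 6.68 to 6.91 against 6.26 to 6.49, differed by -0.42 (standard error 0.12, unadjusted p = 0.00733, adjusted p = 0.876 from limma). Card19, which encodes a protein with a caspase recruitment domain, was at 6.62 to 7.08 and at 6.22 to 6.51 and differed by -0.48 (standard error 0.15, adjusted p = 0.902 from limma). Card19 lies on chromosome 13, as does Zcchc6. Its neighbour Ninj1, of the same list, was at 5.72 to 5.98 and at 4.97 to 5.68, without overlap, and differed by -0.43. Naip1, Naip2, Naip5, Naip6 and Serpinb1a, also on chromosome 13, differed by -0.14 to 0.15 with overlapping genotypes. The part of the chromosome in these values was not tested. The adaptor gene Pycard, which links NLRP3 to caspase-1, and Gsdmd, whose protein forms the pore through which IL-1 beta leaves the cell, had log2 fold changes of 0.13 and 0.071 with overlapping genotypes. Both are named here for their place in the pathway, after their values were seen.

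Among 12 other inflammasome sensors, 6 means were higher and 6 lower. Of all genes, 2.53% were lower at an unadjusted p under 0.05, and of the 12 sensors 1 was. This was Nlrp10, an NLR protein without leucine-rich repeats, at 4.44 to 4.98 in Zcchc6+/+ and 3.87 to 4.37 in Zcchc6-/- arrays, and the difference was -0.67 (standard error 0.18, unadjusted p = 0.00718, adjusted p = 0.868 from limma). Nlrp1b, the sensor of anthrax lethal toxin, had a log2 fold change of -0.44 and Nlrc4, which works with the NAIP receptors for bacterial flagellin, 0.15, each with overlapping genotypes. Nlrp1a and Nlrp1b, and the Naip genes, are close copies of one another, and how far their probes tell them apart was not examined.

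Of 15 genes of MyD88 and IRAK signalling, 12 had a lower mean in Zcchc6-/- macrophages and 3 a higher one, where 48.2% of all genes had a higher mean. At an unadjusted p under 0.05 there was 1 gene, where 5.03% of all genes were. The median difference of the list was -0.062 on the log2 scale, and its direction was not tested. Peli3, a ubiquitin ligase of the Pellino family, differed by -0.27 (standard error 0.11, adjusted p = 0.983 from limma). The adaptor gene Myd88 differed by -0.16 and Tollip, an inhibitor of IRAK signalling, by 0.12 (adjusted p = 0.997 each from limma). The 5 other IL-1 family ligands, Il36a, Il36b, Il36g, Il36rn and Il1f10, had log2 fold changes from -0.23 to 0.070 and 0 at an unadjusted p under 0.05. The 8 other receptors and binding proteins had a median of 0.084. Il18rap was the 1 gene of the 8 at an unadjusted p under 0.05, where 5.03% of all genes were. Il1rapl1, known from neurons, differed by 0.21 at a signal of 1.92 to 2.24.

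Of 18 genes that IL-1 induces in many cells, 0 had an unadjusted p under 0.05, where 5.03% of all genes did. Of their means, 7 were higher and 11 lower, with a median log2 fold change of -0.065. The genes with the smallest p were Nos2, inducible nitric oxide synthase, with 0.24, Ccl20, a chemokine for CCR6-bearing cells, with -0.27, and Nfkbiz, the atypical I-kappa-B protein, with 0.13 (adjusted p = 0.997 each from limma). Nfkbiz had no overlap, at 5.17 to 5.28 against 5.29 to 5.45.

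**Figure D4:**
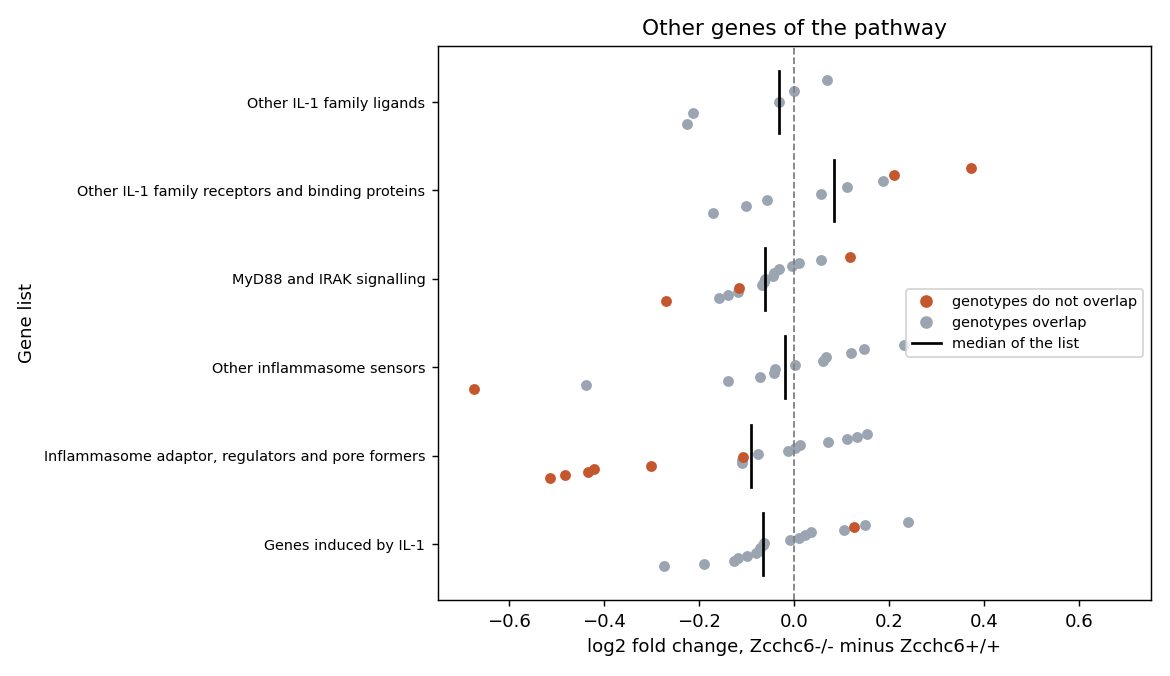
Log2 fold change of each of 74 other pathway genes, Zcchc6-/- minus Zcchc6+/+ (horizontal axis), in 6 lists (vertical axis), with orange points for genes whose genotypes do not overlap and a black bar at the median of each list. In the list of inflammasome adaptor, regulators and pore formers, 6 genes without overlap lie on the lower side and 0 on the higher. Of all genes, 5.15% had no overlap on the lower side and 5.03% on the higher.

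Across the 6 arrays, the genes with the pattern most like Il1r1, among 11298 genes with an established symbol and a signal above the median, were Rassf2 (Pearson r = 0.995), Nemp2 (r = 0.989) and Zfp719 (r = 0.984). Rassf2 was at 6.31, 6.36 and 6.20 in wildtype and at 6.77, 7.11 and 7.26 in Zcchc6-/- macrophages. Its low wildtype band and the order of its Zcchc6-/- arrays match those of Il1r1 because it was picked by its r. Those most like Il1b were Gas2l3 (r = 0.990), Pex10 (r = 0.987) and Exo1 (r = 0.982). These correlations are a description over 6 arrays that share their processing. Values of r above 0.9 were reached by 104 genes for Il1r1 and by 54 for Il1b.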

How the data were processed

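Gene expression was measured in 3 Zcchc6+/+ and 3 Zcchc6-/- samples of alveolar macrophages with Affymetrix Mouse Gene ST arrays. The authors made the deposited log2 values with RMA in affy 1.36.1 under R 2.15.1, which corrects background, brings all arrays to 1 distribution and gives 1 value per Entrez Gene. RMA also takes out a shift common to most genes of 1 array, and it leaves no detection call. The sources used here do not give the genome build. Symbols came from a RefSeq gene table (GRCm38.p6), used for names and gene order only, and from the platform annotation, for 23740 of 25206 genes.

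Genotypes were compared with limma 3.58.1 in R 4.3.3 (lmFit and eBayes, no covariate, no filter of genes, all 6 arrays; 4 residual degrees of freedom, prior 3.47) and Benjamini-Hochberg adjustment over all genes. The fit was tested on simulated data. The summed level of a marker list is the log2 of the sum of its linear values. The number of arrays limits the precision, and the labels do not say that the samples are separate mice, so the p-values rest on a spread between samples that may be technical. No pair of arrays shared more than 0.298% of identical values. The members and lists were chosen with earlier results of these data known. The genes named are the 10 members, their chromosomal neighbours and the 3 genes of each list with the smallest p. Zcchc6, Xist, Ddx3y and the 3 genes most like Il1b and Il1r1 are named as well. Of the markers, Marco, S100a8 and S100a9 stand at the head of their lists, and other genes at the head of a list are not named. Fabp4, Cxcr2, Lcn2, Csf3r, Mmp8, Pycard, Gsdmd, Ninj1, Serpinb1a and the Naip genes were named after their values were seen. Alternatives were a filter on low signals, trended and robust variances, array weights, other normalizations, Xist, a replicate block and leaving out each array.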

Additional observations from a re-analysis of the deposited data

How the results depend on the processing

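None of the 10 members and none of the 74 related genes passed an adjusted p of 0.05 in limma under any of the 15 alternatives, which is no proof of stability in a design of 3 against 3. Over all genes the count was 0 to 1 with an array left out, the 1 without Zcchc6-/- replicate 1. The adjusted p of Il1r1 ranged from 0.299 with array weights to 1.00, and its log2 fold change from 0.56 to 0.75. Il1a, Il1b, Il1rap, Il33 and Nlrp3 also kept their direction under every alternative that tested them, and Il33 and Il1r2 were left out by the filter on low signals. The Casp1 difference turned to 0.0049 with array medians centred and ranged from -0.18 to 0.13 with an array left out. That of Il1r2 turned to 0.019, and that of Il1rn to -0.045, among the arrays with high Xist. With an array left out, the ranges were -0.26 to 0.063 for Il1r2, -0.048 to 0.25 for Il1rn and -0.26 to 0.022 for Il18. The number of members at an unadjusted p under 0.05 was 2 instead of 1, Il1b joining Il1r1, with the filter on low signals, an intensity trend, array weights, centred medians or the replicate block, and 1 to 2 with an array left out (2 without Zcchc6+/+ replicate 2 or Zcchc6-/- replicate 1). The number without overlap was 1 with the filter and 5 among the arrays with high Xist, where 11.5% and 33.7% of all genes tested did not overlap. It was 2 to 5 with an array left out, where the share of all genes was 17.6% to 22.1%, and 21.0% without Zcchc6-/- replicate 1, where 5 members did not overlap. The median of the members was 0.088 with the filter, -0.013 among the arrays with high Xist and 0.024 to 0.11 with an array left out, the upper end without Zcchc6-/- replicate 1. The cause of these shifts was not tested.

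The labels do not say whether replicate numbers pair the samples. Deviations from the genotype mean correlated at 0.090, -0.23 and 0.046 between same-numbered arrays, and at -0.26 to 0.26 between the others. With 3 arrays per genotype, these values can neither show nor exclude a pairing. With the replicate block the Il1r1 log2 fold change was 0.63 (unadjusted p = 0.00480, adjusted p = 1.00 from limma) and that of Zcchc6 -0.70, and 0 genes were called. Centring the array medians moved the median of all genes from -0.0063 to 0.011 and the split of genes at an unadjusted p under 0.05 from 630 higher and 638 lower to 734 and 508. Signals below the table median, as for Il33, Il1r2 and the Zcchc6+/+ arrays of Il1r1, limit what the arrays can show. The Zcchc6-/- values of Il1r1, 4.64 to 5.01, lay above that median of 4.41.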
